A study of Mus musculus with 4 samples.

Results

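The Wnt pathway was followed through 48 genes of brown adipose tissue, selected by name from the 55387 rows of each expression table: all genes named Wnt, Fzd, Sfrp or Dkk with a number, the co-receptors Lrp5 and Lrp6, Axin2, Ctnnb1, Tcf7, Tcf7l1, Tcf7l2, Lef1, Wif1, Znrf3 and Rnf43. Antisense transcripts were left out. By role these were 19 ligands, 12 receptors, 9 secreted antagonists, 2 ubiquitin ligases that act on receptors, 5 genes for β-catenin and its DNA-binding partners, and Axin2, which is both a scaffold and a target. The rule was one of names and used no measured value, although it was written with earlier results of these data known.

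RNA from whole brown adipose tissue was sequenced in 4 male mice aged 15 weeks, 2 per genotype, all of C57BL/6 background. The controls, labelled WT and named here Sox4f/f after their titles, were littermates whose Sox4 gene is flanked by loxP sites. The Sox4-MKO mice carried the same floxed alleles together with Myf5-Cre, which recombines in precursors of both brown adipocytes and skeletal muscle and not in brown adipocytes alone. The study asked what loss of SOX4, an HMG-box transcription factor, did to this tissue.

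Wnt proteins are secreted ligands that bind Frizzled receptors (Fzd) and, in the canonical branch, the co-receptors LRP5 and LRP6, which stops the destruction of β-catenin and lets it act with TCF and LEF factors on targets such as Axin2. Secreted Frizzled-related proteins (Sfrp), WIF1 and Dickkopf proteins (Dkk) act outside the cell, the first 2 families on ligands and Dickkopf proteins chiefly on the co-receptors. Canonical Wnt signaling is known to hold back adipocyte differentiation, and Wnt10b is its best studied ligand in fat.

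Levels are FPKM, fragments scaled to transcript length and to the mapped fragments of the library, so genes of unequal length can be compared. Fold changes are labelled Sox4-MKO against Sox4f/f on log2(FPKM + 1), where changes of low genes come out too small, with the standard error (SE) of the limma fit over the 12877 rows whose mean FPKM in either genotype exceeded 1, the limit used below. A gene was called at an unadjusted p under 0.05 (limma, two-sided). After Benjamini-Hochberg adjustment over all 12877 rows none passed 0.05, against 2090 at the unadjusted threshold, and the lowest adjusted p was 0.191.

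Sox4 mRNA did not separate the labels. It was 1.98 and 1.06 FPKM in Sox4f/f mice 1 and 2, and in libraries labelled Sox4-MKO 1 and 2 it was 0.981 and 3.06 FPKM (log2 fold change 0.20, SE 0.43, adjusted p = 0.843). A gene-level FPKM does not show which part of the gene was read, nor recombination of the floxed alleles. Every direction below is therefore a direction between labels. Estimated depth was about 12200000 to 16300000 fragments per library, a rough figure because the estimate depended on its starting value. Brown adipocyte markers were present in every library, with a summed level of 8373 and 8071 FPKM in the Sox4f/f mice and 4250 and 4886 FPKM under the Sox4-MKO label, and 8 of 12 were called lower. The 12 adipocyte progenitor and fibroblast markers summed to 435 and 473 against 962 and 875 FPKM, and 12 of 12 were called higher. The 12 skeletal muscle markers summed to 226 and 810 against 15399 and 3029 FPKM, with 10 of 12 called higher and the first mouse labelled Sox4-MKO 5.08-fold above the second. No marker of these 3 lists was at 0 in any library. Macrophage markers were also higher, at 219 and 323 against 465 and 447 FPKM (8 of 10 called). Mast cell markers were higher too, at 13.7 and 16.1 against 48.2 and 42.4 FPKM (4 of 5 tested called). The sum of 8 endothelial markers was lower, at 309 and 396 against 212 and 279 FPKM. Of these 8, 3 were lower without overlap and 2 were called lower, beside 8.28% of all tested rows. Emcn went the other way, at 7.85 and 14.1 against 8.76 and 19.8 FPKM, with overlap. The 8 markers of adipocytes in general summed to 11992 and 12056 against 10597 and 13509 FPKM, with overlap, and 2 of 8 were called lower. In whole tissue, fewer cells of a type and less RNA per cell cannot be told apart.

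The limit of 1 FPKM was passed by 21 of the 48 genes, and 27 lay below it, 7 of them listed at 0 in all 4 libraries. Called higher under the Sox4-MKO label were 3 of the 21 (14.3%), Sfrp2, Sfrp4 and Fzd9, and 0 were called lower. Over all tested rows 16.2% were called, 7.95% higher and 8.28% lower. The labels did not overlap for 11 of the 21, 7 higher and 4 lower, where 51.3% of all tested rows did not overlap (21.7% higher and 29.6% lower). The median log2 fold change was 0.05 over the 21 and -0.05 over all tested rows. Sfrp4, Fzd9 and Wnt9a entered the test only through their level under the Sox4-MKO label.

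**Figure D1:**
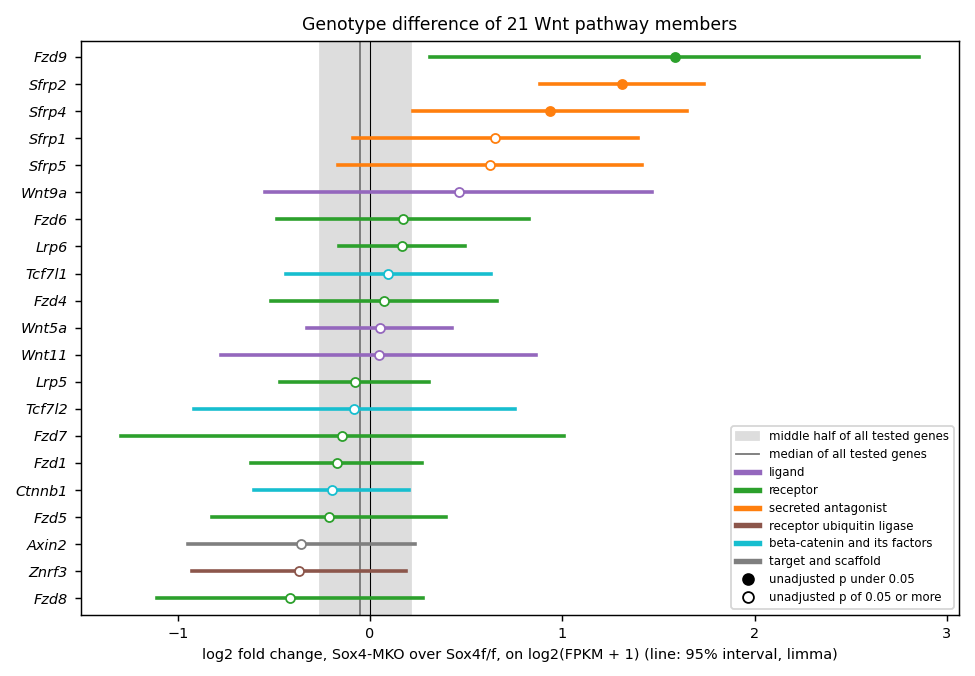
Log2 fold changes (labelled Sox4-MKO against Sox4f/f, log2(FPKM + 1)) of the 21 genes past the limit of 1 FPKM, by role, with 95% confidence intervals. Only the intervals of Sfrp2, Sfrp4 and Fzd9 lie wholly above 0, and none lies wholly below 0.

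Of the 9 secreted antagonists, 6 had values above 0, and those 6 were higher without overlap under the Sox4-MKO label, where 19.7% of the 22285 rows with any value were. Summed over all 9, their level was 6.69 and 6.09 FPKM in the Sox4f/f mice, against 17.2 and 15.1 FPKM. Sfrp2, on chromosome 3 (83766321 to 83774316, plus strand, GRCm38), was the most abundant of them and is made largely by fibroblast-like cells. It stood at 2.55 and 2.50 FPKM against 8.10 and 7.41 FPKM. All 4 libraries sat close to their own genotype, and the ratio of the means was 3.07 (log2 fold change 1.31, SE 0.16, 95% interval 0.89 to 1.74, adjusted p = 0.191). About 70, 61, 204 and 242 fragments lay behind these levels, and leaving out any library kept the log2 fold change between 1.25 and 1.37.

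The promoter of Sfrp2, the called gene with the closest replicates, is shown because SOX and TCF/LEF factors bind short motifs, which were searched on both strands from 250 bases before to 50 after the start. They were the exact words ATCAAAG for TCF/LEF and AACAAAG or AACAATG for SOX, and other forms of either motif were not searched. Neither was in this window (RefSeq, GRCm38.p6, chr3:83766071-83766370, plus strand, 5′ to 3′):
Sfrp2: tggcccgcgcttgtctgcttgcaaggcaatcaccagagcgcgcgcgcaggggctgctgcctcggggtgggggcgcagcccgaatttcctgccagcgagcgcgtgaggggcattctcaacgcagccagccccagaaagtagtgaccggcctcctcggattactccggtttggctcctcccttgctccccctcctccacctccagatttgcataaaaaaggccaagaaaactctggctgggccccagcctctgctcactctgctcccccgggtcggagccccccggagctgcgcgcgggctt

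Sfrp4 (chromosome 13, 19623104 to 19632994, plus strand) encodes a family member also linked to fat. It was 0.362 and 0.167 FPKM in the Sox4f/f mice and 1.68 and 1.17 FPKM under the Sox4-MKO label. The labels were well apart, with a ratio of means of 5.38 (log2 fold change 0.93, SE 0.27, adjusted p = 0.241), on about 20, 8, 86 and 77 fragments. The call was lost without Sox4f/f mouse 2 (log2 fold change 0.82) and under quantile normalization (0.70).

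Sfrp1, which binds Wnt ligands, was 0.995 and 1.91 against 3.20 and 2.42 FPKM, without overlap (log2 fold change 0.65, SE 0.28, adjusted p = 0.343). Sfrp5, described as an adipocyte-secreted inhibitor of Wnt5a, was 2.19 and 0.959 against 2.84 and 2.87 FPKM (0.63, SE 0.30, adjusted p = 0.378). Neither was called, and in both genes the Sox4f/f mice differed from each other by more than the libraries labelled Sox4-MKO did.

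Below the limit, Dkk2 was 0.189 and 0.231 FPKM against 0.652 and 0.629 FPKM. Dkk3, an atypical family member, was 0.408 and 0.316 against 0.768 and 0.579 FPKM. Both were higher without overlap, and in a fit with no filter on low values Dkk2 was called (log2 fold change 0.44, SE 0.10, adjusted p = 0.339) while Dkk3 was not (0.30, adjusted p = 0.500). In that fit 11.5% of 22285 rows were called, 5.9% higher and 5.65% lower. Dkk1, Dkk4 and Wif1 were listed at 0 in every library.

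The progenitor and fibroblast, macrophage and mast cell markers were higher in the same libraries as these antagonists. The ratio between libraries labelled Sox4-MKO 1 and 2 was 1.10 for the summed fibroblast markers, 1.04 for macrophage markers, 1.14 for mast cell markers, 1.09 for Sfrp2, 1.44 for Sfrp4, 1.32 for Sfrp1, 0.988 for Sfrp5, 1.04 for Dkk2 and 1.33 for Dkk3. Single markers ran from 0.665 to 1.40 for fibroblasts, 0.763 to 1.87 for macrophages and 0.626 to 1.63 for mast cells. The same ratio was 1.64 for the summed Schwann cell markers. Their sums overlapped between labels, at 125 and 99.2 against 192 and 117 FPKM, and 0 of 6 tested were called. For the summed skeletal muscle markers the ratio was 5.08, and single ones had a median of 5.11. These ran from 1.11 (Mb) and 1.34 (Myh2) to 21.1 (Myh4). The part of these cell types in the higher antagonist levels was not tested.

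**Figure D2:**
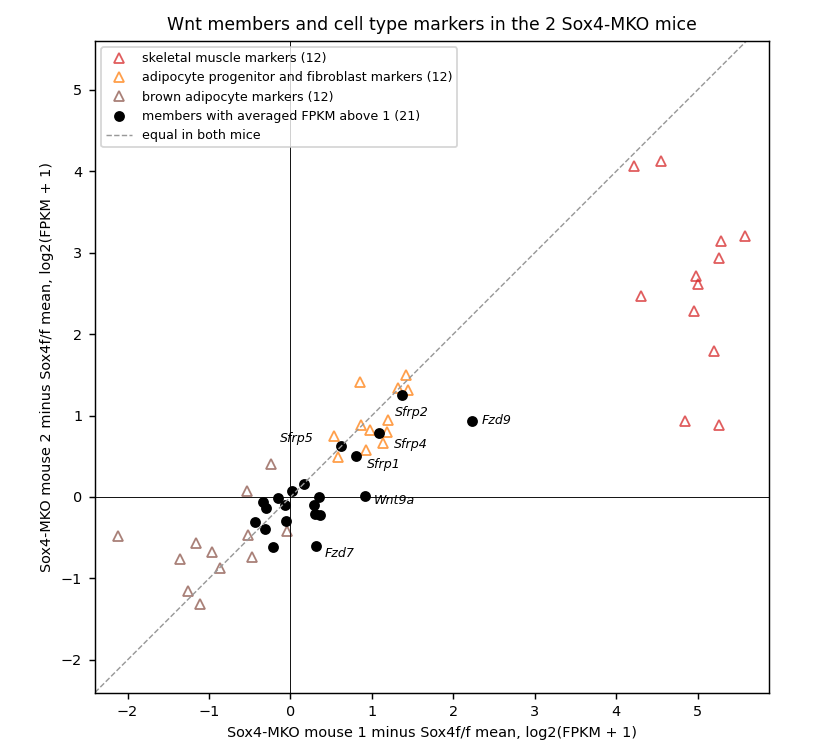
Each point is a gene, with its difference from the Sox4f/f mean on log2(FPKM + 1) in the mouse labelled Sox4-MKO 1 (x axis) and 2 (y axis); black points are the 21 tested genes of the pathway and triangles are cell type markers. Sfrp2 and Sfrp5 lie near the line of equal difference beside the fibroblast markers. Fzd9 and the skeletal muscle markers lie below it, Mb and Myh2 being the closest of these markers. In all, 15 of the 21 genes lie below it, among them Sfrp1, Sfrp4 and Wnt9a.

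Fzd9, a Frizzled receptor on chromosome 5 (135248938 to 135251230, minus strand), was the only receptor called. It was 0.156 and 0.251 FPKM in the Sox4f/f mice and 4.65 and 1.30 FPKM under the Sox4-MKO label. Both labelled libraries were above both controls, but they differed 3.57-fold from each other. The ratio of means was 14.6 (log2 fold change 1.59, SE 0.48, 95% interval 0.31 to 2.86, adjusted p = 0.249), on about 5, 7, 134 and 49 fragments. Without the first mouse labelled Sox4-MKO the log2 fold change was 0.94, without the second it was 2.23, and the call was lost without Sox4f/f mouse 1 (1.53) or 2 (1.64). All 12 skeletal muscle markers were in the same order over the 2 mice. So were all 8 Schwann cell markers, 8 of 10 macrophage markers, 6 of 7 mast cell markers and 7 of 12 progenitor and fibroblast markers. The same order was seen in 15 of the 21 tested genes of the pathway. Only 4 of 12 brown adipocyte and 1 of 8 endothelial markers were. The part of these cell types in the difference was not tested. The Fzd9 promoter held neither motif and is shown as that of the most changed receptor (chr5:135250998-135251297, minus strand):
Fzd9: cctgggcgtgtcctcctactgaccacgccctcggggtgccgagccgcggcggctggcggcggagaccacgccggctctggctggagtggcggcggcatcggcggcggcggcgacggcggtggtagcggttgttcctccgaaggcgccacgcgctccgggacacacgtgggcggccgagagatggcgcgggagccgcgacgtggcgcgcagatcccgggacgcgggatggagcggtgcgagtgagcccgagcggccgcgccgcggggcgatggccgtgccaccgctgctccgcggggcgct

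Fzd4 was by far the most abundant Frizzled receptor, with 66.6% and 74.2% of the summed FPKM of the 10 Frizzled genes in the Sox4f/f mice and 70.4% and 71.6% under the Sox4-MKO label. Its level was 51.0 and 54.5 against 68.2 and 45.1 FPKM. The labels overlapped, and the mice labelled Sox4-MKO were the highest and the lowest of the 4 (log2 fold change 0.07, SE 0.22, 95% interval -0.52 to 0.66). Fzd7 varied by mouse within both labels, at 9.39 and 4.73 against 8.56 and 4.09 FPKM (-0.15, SE 0.44).

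The co-receptors differed little. Lrp6 was 16.1 and 15.3 against 17.8 and 17.6 FPKM, without overlap (log2 fold change 0.17, SE 0.12, 95% interval -0.16 to 0.49, adjusted p = 0.538). Lrp5 was 9.71 and 10.6 against 9.01 and 10.1 FPKM, and overlapped (-0.08, SE 0.15, 95% interval -0.47 to 0.31). These intervals still allow changes of either sign.

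Among the other tested receptors, Fzd1 and Fzd5 were lower without overlap and neither was called. Fzd1 was 6.69 and 6.42 against 6.30 and 5.15 FPKM (log2 fold change -0.17, SE 0.17), and Fzd5 was 1.28 and 1.60 against 0.984 and 1.22 FPKM (-0.21, SE 0.23). Fzd8 was 4.46 and 3.02 against 3.04 and 2.05 FPKM (-0.42, SE 0.26). Fzd6, which acts in planar cell polarity, was 3.06 and 2.1 against 3.51 and 2.53 FPKM (0.17, SE 0.25). Both genes overlapped between labels.

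Fzd2, Fzd3 and Fzd10 were below the limit and higher without overlap. Fzd2 was 0.325 and 0.667 against 0.677 and 0.806 FPKM, and Fzd3 was 0.234 and 0.148 against 0.285 and 0.517 FPKM. Fzd10 was listed at 0 in both Sox4f/f mice and at 0.663 and 0.176 FPKM under the Sox4-MKO label. Its antisense partner Fzd10os was 0 and 0.0628 against 0.798 and 0.403 FPKM, and since the strand setting of the counting is not given in the sources used here, reads of the 2 cannot be told apart.

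**Figure D3:**
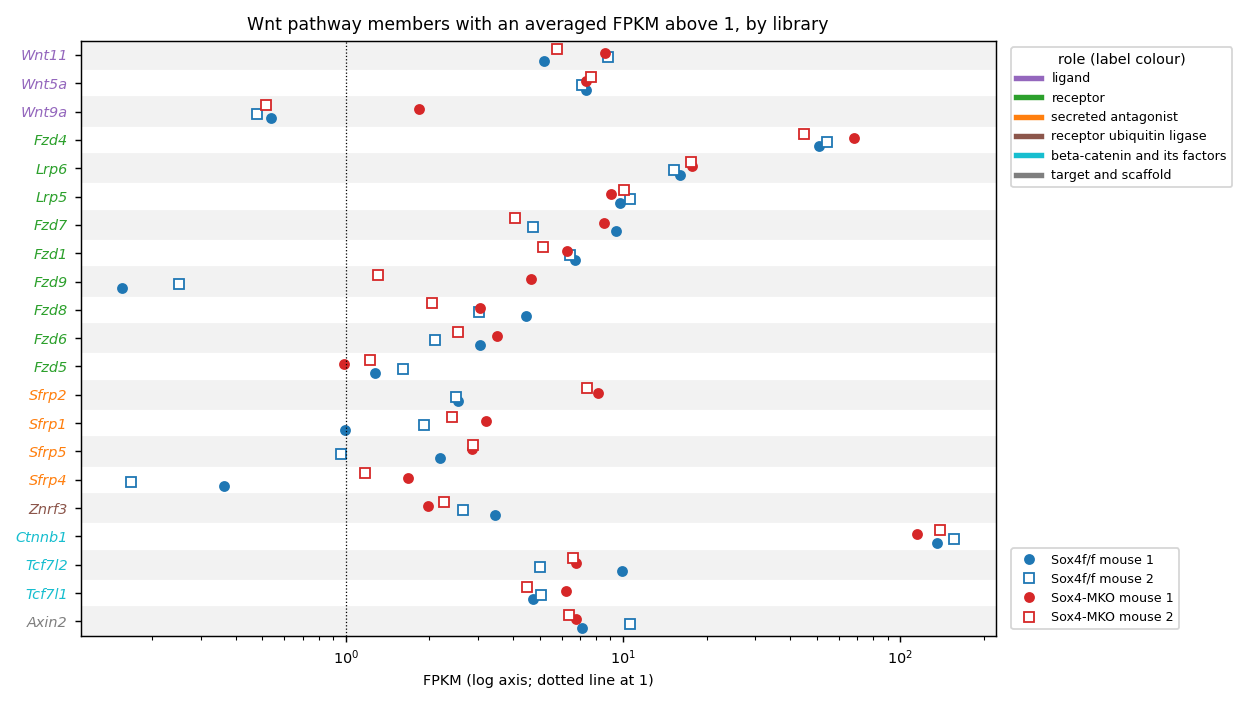
FPKM of the 21 tested pathway genes in each of the 4 libraries (log axis, dotted line at 1), by role. The Sfrp genes and Fzd9 have both libraries labelled Sox4-MKO to the right of both Sox4f/f libraries, while Ctnnb1 and Fzd4, the most abundant, overlap between labels.

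Wnt5a and Wnt11, ligands best known for β-catenin-independent signaling, made up most of the ligand mRNA. Together they held 91.7% and 91.8% of the summed FPKM of the 19 ligands in the Sox4f/f mice and 74.9% and 86.8% in the libraries labelled Sox4-MKO. Wnt5a (chromosome 14, 28504750 to 28527448, plus strand) was 7.37 and 7.10 against 7.37 and 7.68 FPKM. The 4 libraries were nearly level (log2 fold change 0.05, SE 0.14, 95% interval -0.33 to 0.43). Wnt11 (chromosome 7, 98835112 to 98855195, plus strand) was 5.19 and 8.84 against 8.60 and 5.75 FPKM, with 1 high and 1 low mouse under each label (0.04, SE 0.31, 95% interval -0.77 to 0.86).

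Wnt11 and Fzd7 are shown because their promoters held a searched motif, given in capitals, the TCF/LEF motif ATCAAAG starting 51 bases before the start in Wnt11 (chr7:98834862-98835161, plus strand) and the SOX motif AACAAAG 130 bases before it in Fzd7 (chr1:59481897-59482196, plus strand):
Wnt11: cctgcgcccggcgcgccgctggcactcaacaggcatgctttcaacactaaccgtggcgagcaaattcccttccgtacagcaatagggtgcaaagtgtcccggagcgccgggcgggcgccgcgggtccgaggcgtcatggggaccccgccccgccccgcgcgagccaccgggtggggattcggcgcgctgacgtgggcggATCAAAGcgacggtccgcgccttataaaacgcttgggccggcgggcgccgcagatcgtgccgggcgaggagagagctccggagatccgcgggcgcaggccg
Fzd7: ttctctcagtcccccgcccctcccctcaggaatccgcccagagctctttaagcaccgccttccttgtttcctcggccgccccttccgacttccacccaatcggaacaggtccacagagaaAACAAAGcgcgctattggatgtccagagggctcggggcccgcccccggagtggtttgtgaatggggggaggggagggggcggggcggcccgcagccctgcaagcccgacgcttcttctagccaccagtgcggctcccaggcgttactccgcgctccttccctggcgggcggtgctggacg

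Neither gene was called. A second Wnt11 promoter (chr7:98838595-98838894, plus strand) held neither motif, and the Tcf7l2 promoters, which also held a motif, are not shown. Promoters were found for 33 of the 48 genes, 43 promoters in all. The TCF/LEF motif was in 2 of the 43, in Wnt11 and Wnt5b, against 3.73% of 32851 RefSeq promoters. A SOX motif was in 5 of the 43, in Fzd7, Dkk1, Wnt3 and 2 promoters of Tcf7l2, against 9.36% of all. No match overlapped another. A match is a description of these letters and not of binding.

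Wnt9a, the third ligand above the limit, was 0.537 and 0.477 FPKM in the Sox4f/f mice and 1.84 and 0.516 FPKM under the Sox4-MKO label. Its averaged level passed the limit through 1 library alone. The log2 fold change was 0.46 (SE 0.38, adjusted p = 0.574), 0.01 without the first mouse labelled Sox4-MKO and 0.91, past the unadjusted threshold, without the second.

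The remaining 16 ligands were below the limit, 4 of them, Wnt3a, Wnt7a, Wnt7b and Wnt8a, listed at 0 in all libraries, and the highest value among the 16 was 1.00 FPKM. Wnt6 reached it, at 0.0358 and 0.322 against 1.00 and 0.434 FPKM. Wnt10b was 0.124 and 0.364 against 0.652 and 0.484 FPKM. Wnt4 was 0.0414 and 0 against 0.761 and 0.0698 FPKM. These 3 did not overlap, and each was highest in the mouse labelled Sox4-MKO 1.

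Wnt5b overlapped, at 0.358 and 0.0346 against 0.726 and 0.214 FPKM. The first mouse labelled Sox4-MKO was 10.9-fold above the second for Wnt4, 3.39-fold for Wnt5b, 2.32-fold for Wnt6, 3.57-fold for Wnt9a and 3.76-fold for Fzd10. It was 5.08-fold above for the summed skeletal muscle markers and 1.64-fold for the summed Schwann cell markers. For other genes below the limit and higher without overlap this ratio was lower, such as 1.35 for Wnt10b and 0.551 for Fzd3. In Sox4f/f mice 1 and 2 the muscle markers summed to 226 and 810 FPKM, and the Schwann cell markers to 125 and 99.2 FPKM. In that pair Wnt6 was higher in mouse 2, while Wnt4, Wnt5b and Wnt9a (0.537 and 0.477 FPKM) were lower in it. Fzd10 was listed at 0 in both. The part of either cell type in these levels was not tested.

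Wnt16, Wnt2 and Wnt10a were also higher without overlap, at 0.114 FPKM or less in any library. Wnt16 was listed at 0 in both Sox4f/f mice and at 0.114 and 0.0843 FPKM, about 5 fragments each, under the Sox4-MKO label, and was called in the fit without a filter (adjusted p = 0.425). A level of 1 fragment on a transcript of 2 kb was estimated at 0.0307 to 0.0411 FPKM, so levels of this size rest on few fragments. Wnt1, Wnt2b, Wnt3, Wnt8b and Wnt9b overlapped between labels, with no value above 0.0751 FPKM. In the fit without a filter, which took in 41 of the 48 genes, 5 were called higher (12.2%) and 0 lower, where 5.9% and 5.65% of rows were, and 18 were higher and 5 lower without overlap, where 19.7% and 21.3% of rows were.

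**Figure D4:**
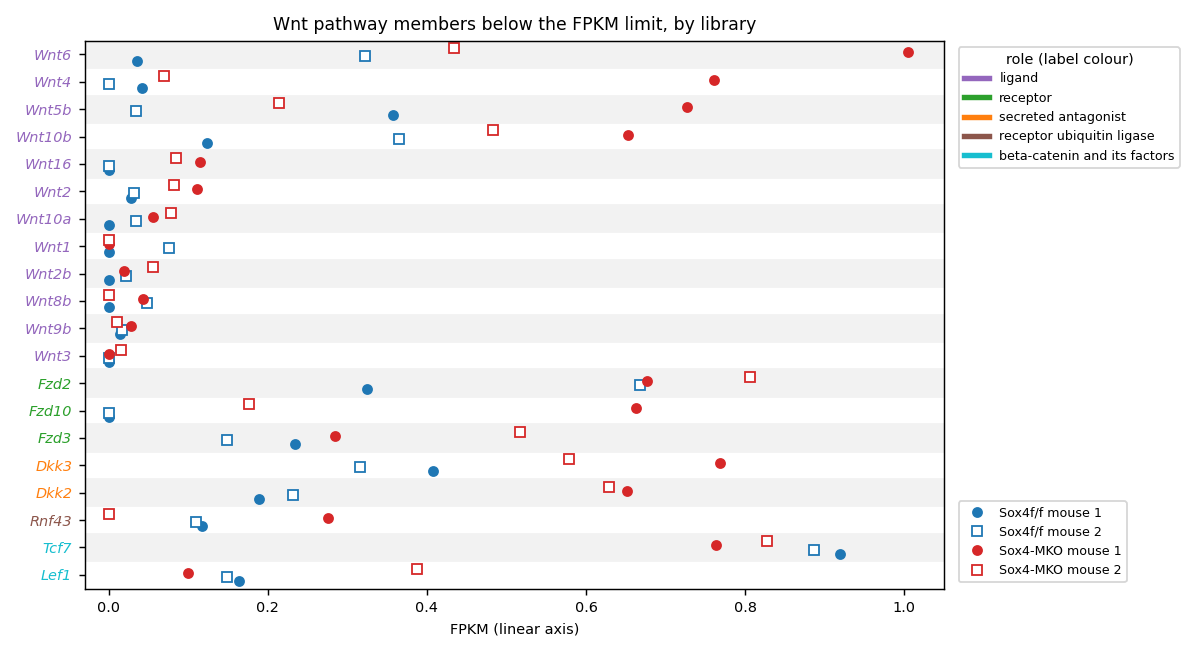
FPKM (linear axis) in each library of the 20 genes below the limit that had a value above 0 in at least one library, by role. Dkk2, Dkk3, Wnt6, Wnt4 and Fzd10 have both libraries labelled Sox4-MKO above both Sox4f/f libraries, and all values are at or below 1.00 FPKM.

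Znrf3 and Rnf43 encode transmembrane ubiquitin ligases that remove Frizzled receptors from the cell surface and are themselves Wnt targets. Znrf3 was 3.46 and 2.64 against 1.98 and 2.27 FPKM. It was lower without overlap and was not called (log2 fold change -0.37, SE 0.21, 95% interval -0.92 to 0.19, adjusted p = 0.443). Rnf43 was 0.117 and 0.110 against 0.276 and 0 FPKM.

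Axin2 (chromosome 11, 108920349 to 108950783, plus strand), a negative regulator widely read as a sign of canonical signaling, was 7.09 and 10.6 against 6.78 and 6.37 FPKM. All values under the Sox4-MKO label were below both controls, though Sox4f/f mouse 1 lay near them and mouse 2 stood apart. The difference was not called (log2 fold change -0.36, SE 0.22, 95% interval -0.95 to 0.23, adjusted p = 0.476) and was -0.10 without Sox4f/f mouse 2.

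β-Catenin mRNA (Ctnnb1) was the most abundant of the 48, at 135 and 156 against 115 and 139 FPKM, with overlap (log2 fold change -0.20, SE 0.15, 95% interval -0.60 to 0.20). The level of the protein, by which the pathway is controlled, was not measured here. Tcf7l2, the main TCF factor of adipose tissue, was 9.93 and 5.02 against 6.76 and 6.58 FPKM, the Sox4f/f mice lying on either side of the others (-0.08, SE 0.32). Tcf7l1, often a repressor, was 4.74 and 5.07 against 6.23 and 4.50 FPKM (0.10, SE 0.20). Below the limit, Tcf7 was 0.919 and 0.887 against 0.764 and 0.827 FPKM, lower without overlap, and Lef1 was 0.164 and 0.149 against 0.0990 and 0.388 FPKM.

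A further list of 118 pathway genes outside the 48 was read in the same fit. Of its 83 tested genes 7 were called lower and 7 higher (16.9%, beside 16.2% of all rows), and their median log2 fold change was -0.07. Of the 83, 10 passed the limit only through their level under the Sox4-MKO label, and 5 of the 7 called higher are among these 10, so those calls are partly set by the filter. Lgr6, a receptor for R-spondins, which sustain Wnt signaling by neutralizing ZNRF3 and RNF43, had the lowest log2 fold change of the 83. It fell from 29.6 and 28.6 to 8.05 and 11.6 FPKM (log2 fold change -1.50, SE 0.20, adjusted p = 0.191). The 4 libraries separated cleanly, and brown adipocyte markers were lower in the same 2 libraries, a relation that was not tested. In a mixed list headed ligand secretion, which also holds genes of other roles, 2 of 6 tested genes were called lower and 1 higher. Porcn, the acyltransferase that all Wnt ligands need for secretion, was 6.21 and 5.75 against 3.46 and 3.58 FPKM (-0.63, SE 0.16, adjusted p = 0.224), and Tinagl1 was 89.2 and 55.0 against 44.7 and 37.9 FPKM (-0.75).

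Of the 7 pathway genes outside the 48 that were called higher, 4 were further targets, described below. The rest were the inhibitors Igfbp4, Trabd2b and Lrp4. Igfbp4, an IGF-binding protein that also restrains Wnt receptors, went from 35.7 and 29.0 to 73.4 and 74.3 FPKM (log2 fold change 1.17, SE 0.14, adjusted p = 0.191). Trabd2b, the gene of that mixed list called higher, encodes a membrane protease that inactivates Wnt ligands. It went from 1.34 and 2.00 to 4.59 and 4.47 FPKM (1.06, SE 0.21, adjusted p = 0.207). Lrp4, which is also the agrin receptor of muscle, was 0.216 and 0.356 against 1.54 and 0.949 FPKM (0.79, adjusted p = 0.284). Of 5 tested secreted or membrane inhibitors these 2, Igfbp4 and Lrp4, were called, and Lrp4 passed the limit only under the Sox4-MKO label. The progenitor and fibroblast markers, and the muscle markers, were higher in the same libraries, and their part was not tested.

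Of 22 tested Dishevelled and destruction complex genes 1 was called, Gsk3a, a kinase that phosphorylates β-catenin, at 51.8 and 45.4 against 37.3 and 33.4 FPKM (log2 fold change -0.45). Of 19 nuclear partners of β-catenin 2 were called, the histone acetyltransferases Ep300 (-0.43) and Crebbp (-0.42), and of 14 non-canonical pathway genes 0 were.

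Among 15 further targets 4 were called higher and 1 lower, and the 4 passed the limit only under the Sox4-MKO label. Tnfrsf19, one of them, was 0.0487 and 0.146 against 1.60 and 0.913 FPKM (log2 fold change 1.02, adjusted p = 0.241). Vegfa, the endothelial growth factor, was 369 and 290 against 249 and 218 FPKM (-0.49, adjusted p = 0.273).

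With a library left out, 1 label is a single mouse, assumed to vary like the 2 mice of the other, and the spread comes from those 2 and the moderation. In such fits Lgr6, Igfbp4 and Trabd2b were called without any single library. Each of the other genes of this list named here lost its call without at least one library, with log2 fold changes between -1.10 and -0.41 for Tinagl1, -0.67 and -0.58 for Porcn, 0.60 and 0.99 for Lrp4, -0.54 and -0.36 for Gsk3a, -0.58 and -0.28 for Ep300, -0.48 and -0.37 for Crebbp, -0.66 and -0.32 for Vegfa, and 0.80 and 1.24 for Tnfrsf19. Of the 83, without Sox4f/f mouse 1 only 2 were called higher, without Sox4f/f mouse 2 there were 4 called lower and 4 higher, and without the second mouse labelled Sox4-MKO 3 were called lower.

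**Figure D5:**
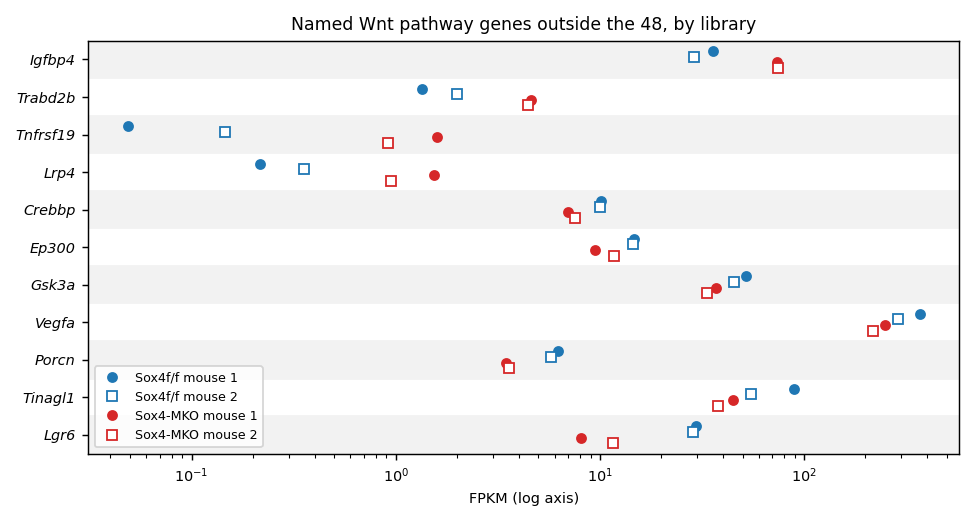
FPKM in each library of the 11 named pathway genes outside the 48 (log axis). Lgr6, Porcn and Vegfa have both libraries labelled Sox4-MKO below both Sox4f/f libraries, and Igfbp4, Trabd2b and Tnfrsf19 have them above.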

How the data were processed

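Brown adipose tissue RNA of 2 Sox4f/f and 2 Sox4-MKO mice was sequenced. The authors deposited 1 table per library of gene FPKM values, with no counts. The submitters' processing notes name Cufflinks 2.1.1, Cuffdiff and mm10, and the aligner and annotation are not given in the sources used here. The labels name a column kit and a stranded mRNA kit, the study's methods TRIzol and TruSeq, so the library type is uncertain. Some genes used by most cells are listed at 0 in a library, so a 0 can be a failed estimate.

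Genotype was fitted with limma 3.58.1 in R 4.3.3 on log2(FPKM + 1), with a trended moderated variance, for rows whose mean FPKM exceeded 1 in either genotype. The fit was also run on simulated data with independent normal noise for each gene, which cannot test differences between mice shared by many genes. P-values are two-sided, and adjusted p-values are Benjamini-Hochberg over all tested rows. A permutation test of 2 against 2 cannot go below 0.333. The labels do not say more of the replicates than that they are separate mice.

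Genes below the limit were read from a fit without that filter. The fit was repeated with a replicate block, without each library in turn, with pseudocounts of 0.1 and 0.01, with no filter, with a limit of 5 FPKM, under 3 other scalings and without moderation. Every gene found by the name rule is accounted for. From each further list, genes called and not overlapping between labels were named, at most 2 per direction by fold change. The values of 1 gene that this rule names are not reported here. Members and lists were chosen with earlier results of these data known. Depth was estimated from the level of 1 fragment in single-transcript genes of at least 1500 nt. The median over several starting values was used. By starting value, FPKM times kb per fragment ran from 0.0731 to 0.157 and 0.04 to 0.0821 in Sox4f/f mice 1 and 2. Under the Sox4-MKO label it ran from 0.0403 to 0.158 and 0.0614 to 0.185. Depth is therefore approximate, as are fragment numbers per gene, which derive from it and from GENCODE M21 transcript lengths. Promoters are RefSeq's, and gene coordinates are GENCODE's, both on GRCm38, the genome that mm10 names. Figures were drawn with matplotlib 3.10.9.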

Additional observations from a re-analysis of the deposited data

How the results depend on the processing

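Sfrp2 was called under every alternative run. Fzd9 and Sfrp4 lost their call as given above, and Fzd9 also without moderation of the variance (log2 fold change 1.59 in either case). Genes of the 48 called higher numbered 5 with no filter and 1 with a limit of 5 FPKM, and 2 to 4 on leaving out a library, when their median log2 fold change ran from -0.064 to 0.29, highest without the second mouse labelled Sox4-MKO. Of the other pathway genes, leaving out a library gave 3 to 5 lower and 2 to 7 higher, no moderation gave 4 lower, and the limit of 5 gave 1 higher. Over all tested rows, leaving out a library gave 380 to 1015 lower, 433 to 1443 higher and 0 to 4 with an adjusted p under 0.05; no moderation gave 553 higher, and rescaling without mitochondrially encoded genes and Ucp1 gave 746 lower and 1322 higher, against 1066 and 1024. The direction depended on single libraries for Sox4 (-0.32 to 0.71), Tcf7l2 (-0.51 to 0.35), Fzd7 (-0.60 to 0.31), Wnt11 (-0.29 to 0.38), Fzd4 (-0.22 to 0.36), Tcf7l1 (-0.10 to 0.29) and Fzd6 (-0.024 to 0.37), and for Wnt11 also on quantile normalization (-0.0031). The cause of these shifts was not tested. With the mouse numbers as a replicate block, 3 of the 48 were called higher as before, other pathway genes called higher numbered 5, and Lrp4, Ep300 and Crebbp were no longer called. Over the tested rows, the deviations of mice with the same number had a correlation of -0.0122. This value comes from 2 mice per label and cannot show whether the numbers pair the samples. With 2 mice per label and no counts, sampling error at low FPKM could not be modelled.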
